A study of Mus musculus with 12 samples.

Results

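Cebpa, Cebpb, Cebpd and Cebpg encode 4 transcription factors of the CCAAT/enhancer-binding protein (C/EBP) family, and their transcripts were followed in 12 RNA-seq libraries of MIN6 cells. They were taken by gene name from a count table and a table of FPKM (fragments scaled to gene length and library size) that list 54022 genes. Cebpd was singled out because it was among the genes with the largest rise from low to high glucose in these same libraries, so the values for high against low glucose are given for the members as a description, without a test. MIN6 is a mouse insulin-secreting β-cell line, labelled wild type, and the study asked how trimethylamine N-oxide (TMAO), a metabolite made from dietary choline and carnitine by gut microbes and the liver, acts on such cells. The 4 conditions were low glucose with vehicle, low glucose with TMAO, high glucose with vehicle and high glucose with TMAO, with 3 libraries each. TMAO was given at 100 nM for 18 h, and the submitters call the 3 libraries biological replicates of this single line, so p-values measure the spread between these samples.

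C/EBP proteins bind DNA as dimers through a basic region and a leucine zipper (bZIP), and they pair with each other and with related bZIP factors of the ATF family. C/EBPα, C/EBPβ and C/EBPδ carry activation domains and are best known from fat cell development, liver metabolism and the acute-phase response, where Cebpb and Cebpd are early-response genes. C/EBPγ is short, lacks a typical activation domain, acts mainly through its partners, and is known as a partner of ATF4 in the response to amino acid shortage.

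Between 16793162 and 22340542 reads were assigned to genes per library, and 16222 genes had enough counts to be tested. Of the 4 members, 3 passed that filter and Cebpa did not. The insulin genes marked the cells as labelled, with condition means of 24713 to 26157 FPKM for Ins2 and 4565 to 4806 FPKM for Ins1. Of 18 markers of other islet, exocrine, immune and stromal cells, 15 stayed under 1 FPKM in every library of each condition, and Prss2, Pnlip, Krt19, Sox9, Ptprc, Adgre1, Col3a1 and Pdgfra had 0 counts. The summed FPKM of these 18 markers, nearly all of it from the glucagon gene Gcg, lay between 205 and 222 in the 6 low-glucose libraries and between 229 and 234 in the 6 high-glucose libraries. This difference runs alongside every glucose comparison, and its part in them was not tested.

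Upstream sequences are shown for Cebpb and Cebpg because the former was higher in high glucose while the latter hardly differed, and their start regions hold different motifs. They are the 250 bases before the RefSeq start on assembly GRCm38.p6, for Cebpb at chr2:167688665-167688914 on the plus strand and for Cebpg at chr7:35056567-35056816 on the minus strand. Capitals mark matches to the short CRE site TGACG, to which CREB and ATF factors bind, and to the CCAAT box, on either strand.
Cebpb: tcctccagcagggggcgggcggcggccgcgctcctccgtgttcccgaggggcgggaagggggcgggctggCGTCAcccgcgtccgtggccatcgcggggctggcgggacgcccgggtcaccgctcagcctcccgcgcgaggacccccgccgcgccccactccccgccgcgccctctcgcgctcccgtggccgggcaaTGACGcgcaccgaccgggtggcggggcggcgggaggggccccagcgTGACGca
Cebpg: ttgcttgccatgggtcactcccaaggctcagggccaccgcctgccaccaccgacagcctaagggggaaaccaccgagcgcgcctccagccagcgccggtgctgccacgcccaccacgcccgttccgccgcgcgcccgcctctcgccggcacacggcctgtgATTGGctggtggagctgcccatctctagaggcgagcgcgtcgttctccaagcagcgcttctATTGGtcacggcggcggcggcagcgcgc

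The Cebpb window held 3 short CRE sites, the nearest of them 7 to 3 bases before the start, and 5 GC boxes (GGGCGG), 2 of which overlap. The Cebpg window held neither, but it had 2 CCAAT boxes read on the opposite strand, 89 to 85 and 28 to 24 bases before the start. Among all 32851 windows of this length, a short CRE site occurred in 17.8%, a GC box in 32.7% and a CCAAT box in 33.8%. The window of Cebpa held only a TATA box (TATAAA), 30 to 25 bases before the start, a motif found in 12.4% of all windows. No window of these 3 members contained a full CRE (TGACGTCA, in 1.55% of windows), the C/EBP palindrome TTGCGCAA (0.164%), a STAT site (TTCNNNGAA, 7.02%), an E-box (CACGTG, 6.02%), a C/EBP-ATF element (TGATGNAAN, 3.44%) or a CArG box (1.47%). G and C made up 81.6% of the Cebpb window, 70.8% of the Cebpg window and 66.4% of the Cebpa window, against a median of 52.4% over all windows. These matches describe the letters only. Any link to the glucose values, by which the printed sequences were chosen, was not tested. Cebpd, the member with the largest rise, was not among the sequences used here.

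Cebpd, an early-response gene like Cebpb, was low in low glucose and close to the levels of Cebpb and Cebpg in high glucose. The gene (ENSMUSG00000071637) lies at chr16:15887286-15891031 on the plus strand of mm10, and its coding transcript is a single exon. In low glucose with vehicle its FPKM was 1.74, 1.58 and 1.33, from 124, 113 and 93 counts. In low glucose with TMAO it was 1.58, 1.59 and 1.54, from 115, 116 and 108 counts. The low-glucose libraries thus stood together whether TMAO was present or not.

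In high glucose with vehicle the FPKM of Cebpd was 14.9, 12.9 and 17.0, from 1045, 984 and 1088 counts. In high glucose with TMAO it was 14.9, 15.2 and 15.1, from 939, 1274 and 966 counts. Every high-glucose library was far above every low-glucose library, and the vehicle libraries were more scattered than the TMAO libraries. The log2 fold change from low to high glucose in the edgeR model was 3.26 ± 0.10 (SE) with vehicle, a 9.61-fold difference, and 3.26 ± 0.10 with TMAO, a 9.58-fold difference. Only 3 of the 16222 tested genes were further up with vehicle and 2 with TMAO, which is the property Cebpd was chosen for. In bulk RNA, more RNA per cell and more cells that express a gene cannot be told apart.

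**Figure D1:**
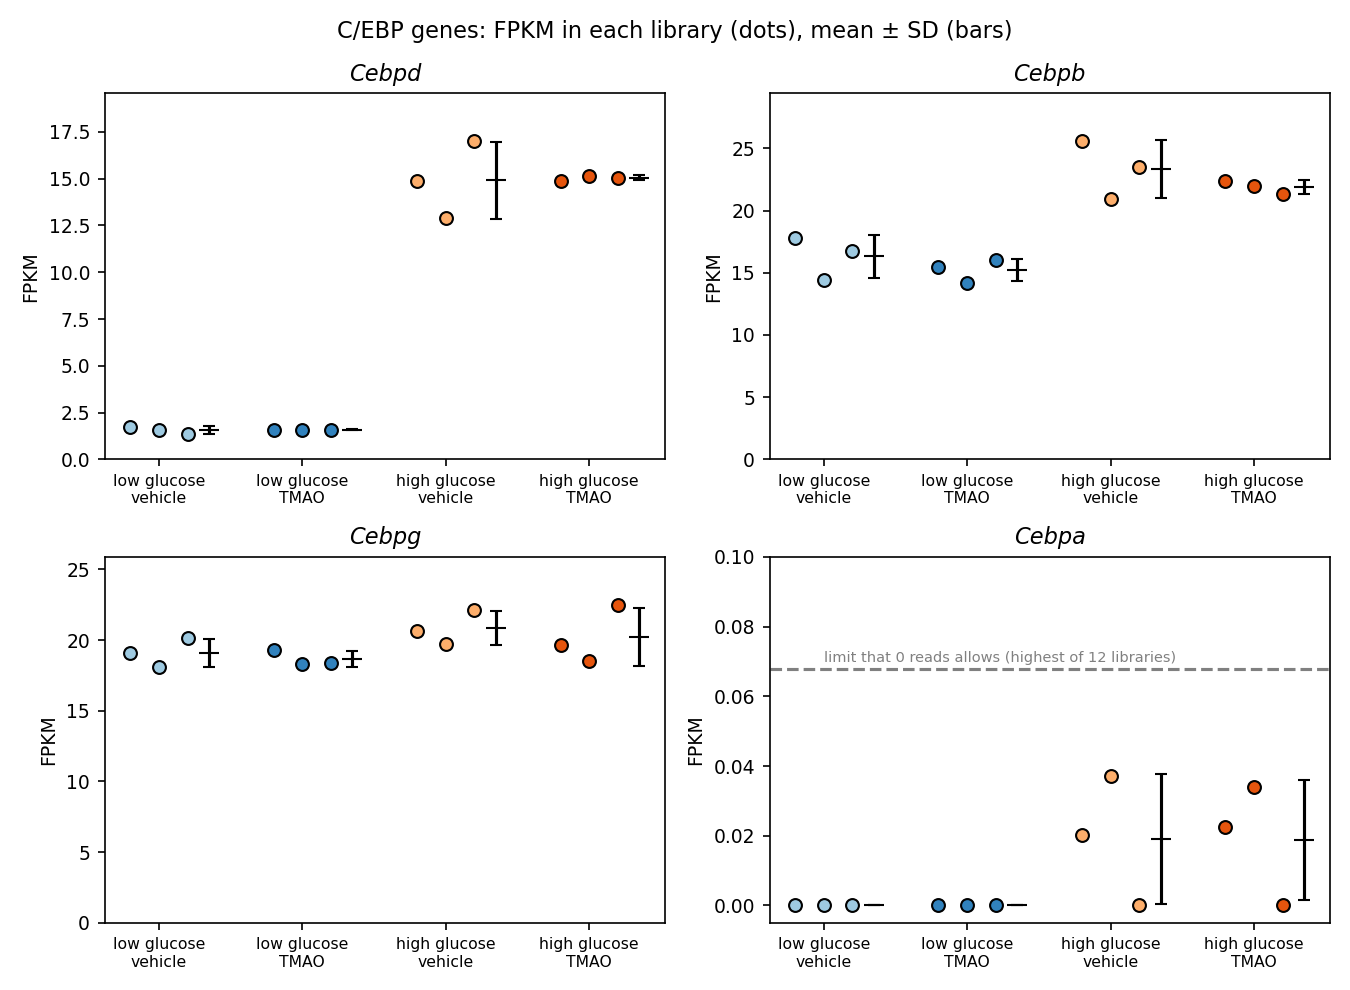
FPKM of Cebpd, Cebpb, Cebpg and Cebpa (panels, each with its own axis) in each library of the 4 conditions, with 3 dots per condition and bars for the mean ± SD. Cebpd lies between 1.33 and 1.74 in low glucose and between 12.9 and 17.0 in high glucose, and Cebpa stays under the dashed line, which is the level that a count of 0 still allows.

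Cebpb, the member that acts with Cebpd in fat and liver cells, was well expressed in every library and moderately higher in high glucose. This single-exon gene (ENSMUSG00000056501) lies at chr2:167688915-167690418 on the plus strand. Its FPKM in low glucose was 17.8, 14.4 and 16.7 with vehicle and 15.4, 14.2 and 16.0 with TMAO. In high glucose it was 25.6, 20.9 and 23.5 with vehicle and 22.4, 22.0 and 21.3 with TMAO. The low-glucose and high-glucose libraries did not overlap, although the gap between 17.8 and 20.9 FPKM was small next to that of Cebpd. The log2 fold change was 0.52 ± 0.08 (SE) with vehicle and 0.53 ± 0.08 with TMAO, or 1.43-fold and 1.44-fold.

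Cebpg, the short partner of ATF4, was the most even member. The gene (ENSMUSG00000056216) lies at chr7:35046422-35056573 on the minus strand, with transcripts of up to 2 exons. Its FPKM in low glucose was 19.1, 18.1 and 20.1 with vehicle and 19.3, 18.3 and 18.4 with TMAO. In high glucose it was 20.6, 19.8 and 22.1 with vehicle and 19.6, 18.5 and 22.5 with TMAO. The low-glucose and high-glucose ranges overlapped under both treatments. The log2 fold change from low to high glucose was 0.13 ± 0.06 (SE) with vehicle and 0.11 ± 0.06 with TMAO, or 1.09-fold and 1.08-fold.

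Cebpa, the member that drives terminal fat cell and granulocyte development, was at the limit of detection. The gene (ENSMUSG00000034957) lies at chr7:35119293-35121928 on the plus strand, 62720 bases from Cebpg. All 6 low-glucose libraries had 0 counts, which allows at most 3 counts of a library, or 0.0509 to 0.0678 FPKM over the 12 libraries, by counting error alone. The high-glucose libraries had 1, 2 and 0 counts with vehicle and 1, 2 and 0 counts with TMAO. Since no library rose above this limit, no fold difference is given, and a low level in either glucose condition was not detectable at this depth.

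Set side by side, the log2 fold change of Cebpd exceeded that of Cebpb by 2.75 ± 0.13 (SE) with vehicle and 2.73 ± 0.13 with TMAO. That of Cebpb exceeded that of Cebpg by 0.39 ± 0.10 with vehicle and 0.41 ± 0.10 with TMAO. Each SE treats the compared genes as independent, although they were measured in the same libraries. Cebpd had the largest difference of the 3 and Cebpg the smallest, which describes the values the members were chosen with.

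**Figure D2:**
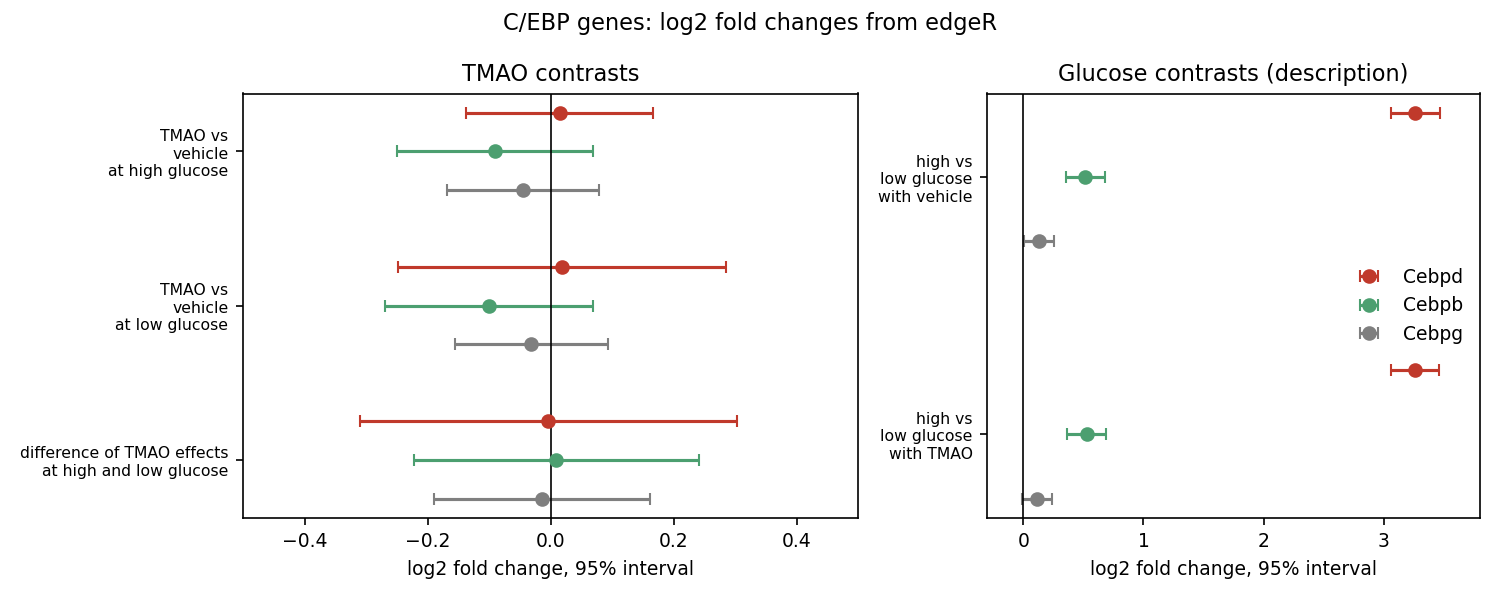
Log2 fold changes (x axis) of Cebpd, Cebpb and Cebpg for the 3 TMAO contrasts on the left and the 2 glucose contrasts on the right, with 95% intervals from edgeR as bars and separate scales. All 9 intervals on the left include 0, while on the right Cebpd sits at 3.26 and Cebpb near 0.52.

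The order of levels per gene length depended on glucose. In low glucose Cebpg came first (19.1 ± 1.01 FPKM with vehicle and 18.7 ± 0.556 with TMAO, SD, n = 3), then Cebpb (16.3 ± 1.75 and 15.2 ± 0.922), then Cebpd (1.55 ± 0.206 and 1.57 ± 0.0259), and Cebpa was last. None of these neighbours overlapped within a condition. In high glucose, with the deposited gene lengths, Cebpb had the highest mean (23.3 ± 2.33 FPKM with vehicle and 21.9 ± 0.536 with TMAO), and its range overlapped that of Cebpg (20.8 ± 1.20 and 20.2 ± 2.06). Cebpb was above Cebpg in 3 of 3 high-glucose vehicle libraries and in 2 of 3 high-glucose TMAO libraries, so their order there is not clear. Cebpd followed at 14.9 ± 2.06 FPKM with vehicle and 15.0 ± 0.135 with TMAO, below Cebpg in each of these libraries.

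The place of Cebpd in that order depends on the gene model. The deposited FPKM divides by 3746 bases, whereas RefSeq ends the gene after 2260 bases. Dividing by the RefSeq length was a choice made after seeing the data, and it only rescales the deposited FPKM. Any reads counted beyond the RefSeq end stay in the value, and Cebpg kept its deposited length. On this scale Cebpd reached 24.7 ± 3.42 FPKM in high glucose with vehicle and 24.9 ± 0.224 with TMAO. It stood above Cebpg in every high-glucose library. It then had the highest mean of the 4 genes in high glucose, with Cebpb at 23.1 and 21.7 FPKM by its own RefSeq length, and was above Cebpb in 2 of 3 vehicle and 3 of 3 TMAO libraries. The fold differences between conditions do not depend on the length.

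The summed FPKM of the 4 genes was 37.0 ± 2.52 (SD, n = 3) in low glucose with vehicle and 35.5 ± 1.19 with TMAO, and 59.1 ± 4.85 and 57.2 ± 1.59 in high glucose. Cebpd made up 4.21% ± 0.629 of this sum in low glucose with vehicle and 25.2% ± 1.71 in high glucose with vehicle. With TMAO its share was 4.43% ± 0.198 and 26.3% ± 0.837. With the FPKM rescaled to RefSeq lengths, except for Cebpg, its share was 6.81% ± 0.993 in low and 35.9% ± 2.08 in high glucose with vehicle. With TMAO it was 7.16% ± 0.309 and 37.3% ± 1.01. Cebpg gave over 49% of the sum in each low-glucose library and 33.2% to 38.2% in the high-glucose libraries. With the deposited lengths the family signal was thus mostly Cebpg and Cebpb in low glucose and spread over 3 genes in high glucose.

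**Figure D3:**
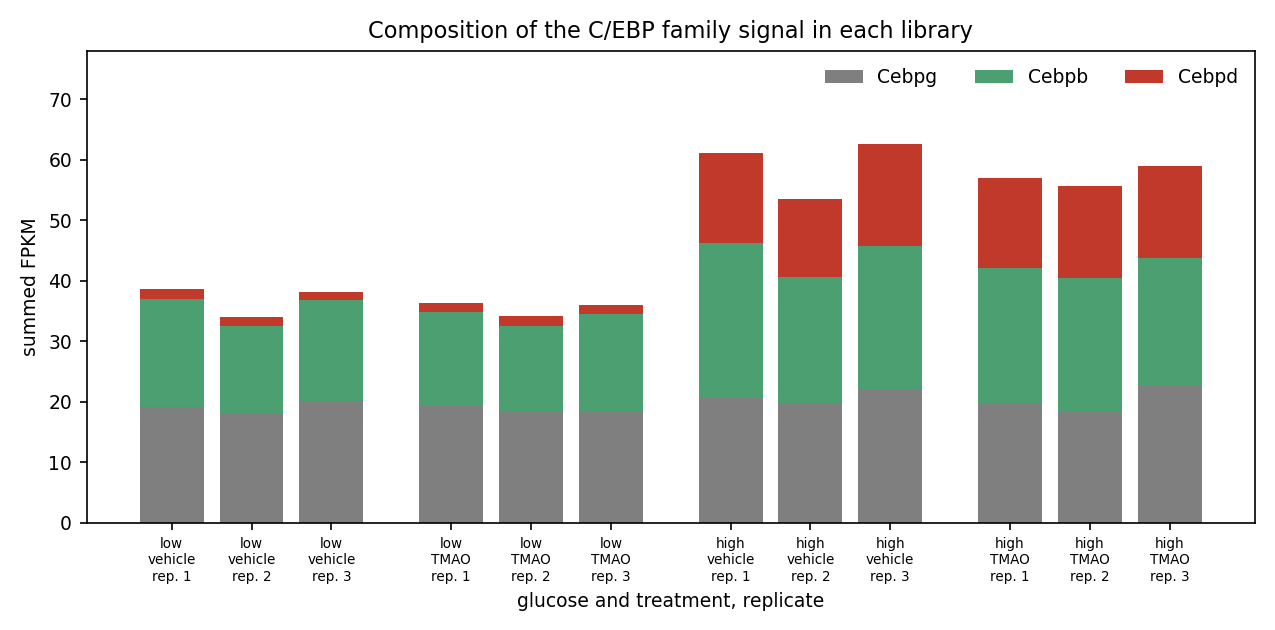
Summed FPKM of Cebpg, Cebpb and Cebpd (stacked colours, y axis from 0) in each of the 12 libraries, by the deposited gene lengths, grouped by glucose and treatment. The red part, Cebpd, is a thin layer in low glucose and makes up 24.0% to 27.2% of the bar in high glucose, while the grey part, Cebpg, keeps nearly the same height.

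Whether TMAO changed the C/EBP genes was tested in the same model, since the members were not chosen on it. At high glucose, none of the 3 tested members passed by edgeR's quasi-likelihood test (lowest adjusted p = 0.940), nor did any by DESeq2 or at an unadjusted p under 0.05 by edgeR. Of all tested genes, 0% passed the adjusted and 5.35% the unadjusted threshold by edgeR. Cebpd differed 1.01-fold between TMAO and vehicle (95% interval 0.909 to 1.12). Cebpb differed 0.939-fold (0.841 to 1.05) and Cebpg 0.969-fold (0.889 to 1.06). All 3 members had overlapping libraries, and the intervals leave room for changes of up to about these bounds.

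At low glucose, again none of the 3 passed by edgeR (lowest adjusted p = 1.00) or DESeq2, and none had an unadjusted p under 0.05 by edgeR. Of all tested genes, 0.00616% passed the adjusted and 2.2% the unadjusted threshold by edgeR. The fold difference of Cebpd was 1.01 (95% interval 0.842 to 1.22), wider than at high glucose. It was 0.933 (0.830 to 1.05) for Cebpb and 0.979 (0.898 to 1.07) for Cebpg. The difference between the TMAO effects at high and low glucose was −0.0040 ± 0.15 (log2, SE) for Cebpd, 0.0094 ± 0.11 for Cebpb and −0.014 ± 0.085 for Cebpg. None of the 3 passed that test either by edgeR (lowest adjusted p = 1.00) or DESeq2, or at an unadjusted p under 0.05 by edgeR. Of all tested genes, 0% passed the adjusted and 3.36% the unadjusted threshold by edgeR. The sign of these small TMAO effects turned for Cebpd and Cebpg when single libraries were left out, for Cebpd at high glucose without high glucose vehicle replicate 2 (log2 fold change −0.084) and at low glucose without low glucose vehicle replicate 3 (−0.079). For Cebpg it turned at high glucose without high glucose TMAO replicate 2 (0.017) and at low glucose without low glucose vehicle replicate 3 (0.0080). For Cebpb the effect kept its sign but ranged from −0.17 (without high glucose vehicle replicate 2) to −0.017 (without high glucose vehicle replicate 1) at high glucose, and from −0.18 (without low glucose vehicle replicate 2) to −0.033 (without low glucose vehicle replicate 1) at low glucose.

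Both glucose-linked members share ground with a gene on the other strand, and the sources used here do not state whether reads were counted by strand. Exons of Spidr, a DNA repair gene, cover 562 bases of the Cebpd transcript (15.0%), all outside its coding part. Spidr had a mean of 750.5 counts and a log2 difference from low to high glucose of 0.10 ± 0.06 (SE) with vehicle and 0.13 ± 0.06 with TMAO, which did not pass (edgeR, adjusted p = 0.572 and 0.338). An exon of Tmem189, a lipid desaturase gene, covers 312 coding bases of Cebpb (20.7% of its transcript). Tmem189 had a mean of 429.8 counts and a log2 difference of 0.15 ± 0.07 with vehicle and −0.08 ± 0.07 with TMAO, which did not pass (edgeR, adjusted p = 0.366 and 0.667). Whether reads of either partner were counted for the member, or the reverse, was not tested.

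**Figure D4:**
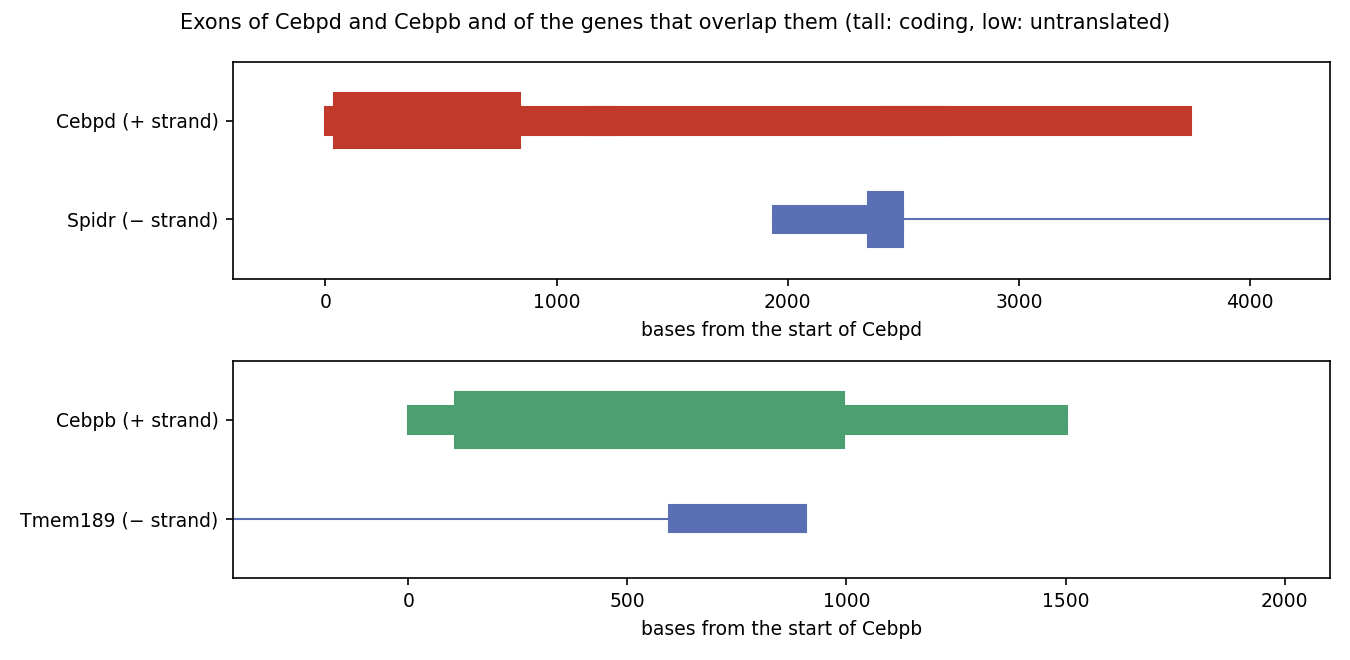
Exons of Cebpd with Spidr (top) and Cebpb with Tmem189 (bottom) along the distance in bases from the start of the C/EBP gene, drawn to scale from the GENCODE annotation, with tall boxes for coding and low boxes for untranslated parts. The Spidr exon covers 562 bases in the untranslated end of Cebpd, and the Tmem189 exon covers 312 bases within the coding part of Cebpb.

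The overlap partners of Cebpg and Cebpa were small. Gm45095, Gm45094 and Gm44836 lie within Cebpg, had means of 16.42, 14.67 and 12.42 counts, and share at most 73 exon bases with it. The antisense gene Gm45091 at the start of Cebpa had 0 counts. Around the 4 members, the 3 nearest protein-coding genes on each side came to 18 different genes besides Cebpa and Cebpg, which neighbour each other. Of these, 15 had enough counts to be tested, among them Pepd, 1714 bases from Cebpg, as well as Prkdc, Mcm4 and Mzt2 on the side of lower coordinates from Cebpd. None of the 15 passed for glucose or TMAO by edgeR or DESeq2 (at an unadjusted p under 0.05, 2 did for glucose with vehicle and 2 with TMAO, next to 13.0% and 14.7% of all tested genes, and 0 in either TMAO comparison), with log2 differences from low to high glucose between −0.21 and 0.49 with vehicle and between −0.36 and 0.28 with TMAO.

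Other C/EBP-related bZIP factors, which include partners of C/EBP proteins and factors that bind related DNA sites, were called in both directions. Of 14 on the list, 11 were tested, and 1 rose and 1 fell in high glucose with vehicle, where 1.99% of all tested genes were called higher and 1.31% lower. With TMAO 1 rose and 2 fell, where 2.0% of all tested genes were called higher and 1.64% lower. An unadjusted p under 0.05 was found for 4 of the 11 with vehicle and 6 of the 11 with TMAO, and for 13.0% and 14.7% of all tested genes. These shares are the background for the counts of every list. The median log2 difference of the list was 0.031 with vehicle and 0.071 with TMAO, against 0.0021 and 0.0012 over all tested genes. Atf3, a stress-induced repressor, rose from 5.01 ± 0.382 to 6.62 ± 0.648 FPKM with vehicle (log2 fold change 0.40 ± 0.10, edgeR adjusted p = 0.0173) and from 4.94 ± 0.301 to 6.41 ± 0.470 with TMAO (0.38 ± 0.10, adjusted p = 0.0298). Ddit3, which encodes the C/EBP partner CHOP, fell from 75.9 ± 1.58 to 66.9 ± 3.40 FPKM with vehicle (−0.18 ± 0.05, edgeR adjusted p = 0.0297) and from 77.1 ± 2.28 to 67.4 ± 2.39 with TMAO (−0.19 ± 0.05, adjusted p = 0.0178). The clock output factor Dbp fell with TMAO (−0.28 ± 0.08, edgeR adjusted p = 0.0434), and with vehicle its difference was −0.25 ± 0.08 (adjusted p = 0.105). These calls were lost when single libraries were left out. With vehicle, Ddit3 no longer passed without any 1 of low glucose vehicle replicates 1, 2 and 3 and high glucose vehicle replicates 1 and 2 (edgeR adjusted p up to 0.178), and Atf3 without low glucose vehicle replicate 1 or 2 or high glucose vehicle replicate 2 or 3 (up to 0.145). With TMAO, Ddit3 (up to 0.106) and Dbp (up to 0.265) no longer passed by edgeR without low glucose TMAO replicate 1 or 3 or high glucose TMAO replicate 2 or 3, and Atf3 (up to 0.150) without low glucose TMAO replicate 1, 2 or 3 or high glucose TMAO replicate 1 or 2. With limma on log2(FPKM + 1), the calls of Ddit3 with vehicle and of Atf3 and Dbp with TMAO were also lost. That of Dbp was lost on log2(FPKM + 0.1) as well. Atf4, the partner of Cebpg, had 263 and 277 FPKM in low and high glucose with vehicle and did not pass (0.08 ± 0.05, edgeR adjusted p = 0.541). Cebpe, the myeloid member of the family, had at most 4 counts in any library.

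Among 30 regulators of C/EBP factors, 29 were tested, and 4 rose and 0 fell in high glucose with either treatment by edgeR, where 5 with vehicle and 9 with TMAO had an unadjusted p under 0.05. The shares of all tested genes called higher were 1.99% and 2.0%, and those with an unadjusted p under 0.05 were 13.0% and 14.7%. Like the other lists, this one was written with earlier results of these data known, so its counts are a description. The median log2 difference of the list was −0.016 with vehicle and −0.026 with TMAO. Klf4, which activates Cebpb early in fat cell development, went from 5.10 ± 0.294 to 13.0 ± 1.13 FPKM with vehicle (log2 fold change 1.35 ± 0.08, edgeR adjusted p = 3.4e-14) and from 6.16 ± 0.405 to 13.9 ± 0.563 with TMAO (1.18 ± 0.07, adjusted p = 5.3e-13). Crem, whose products bind CRE sites and include the inducible repressor ICER, rose from 3.45 ± 0.109 to 7.17 ± 1.29 FPKM with vehicle (1.05 ± 0.11, edgeR adjusted p = 2.0e-05) and by 1.02 ± 0.11 with TMAO (adjusted p = 3.0e-05). Trib1 and Trib2, pseudokinases that bring C/EBPα to the ubiquitin ligase COP1, rose by 0.79 ± 0.07 and 0.37 ± 0.07 with vehicle (edgeR adjusted p = 1.2e-09 and 0.00233) and by 0.75 ± 0.07 and 0.45 ± 0.07 with TMAO (adjusted p = 2.9e-09 and 0.000141). These 4 kept their call in all 14 alternative fits of each comparison. Their relative Trib3 had 61.0 and 59.0 FPKM with vehicle and did not pass (−0.05 ± 0.06, edgeR adjusted p = 0.816), nor did the cytokine signal genes Stat3, Il6st, Jak1 and Socs3 (adjusted p = 0.774, 0.924, 0.866 and 0.389). Creb1 itself was at 5.48 and 5.49 FPKM (0.0026 ± 0.06, edgeR adjusted p = 0.992).

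Among known C/EBP target genes of liver, fat and immune cells, most acute-phase and inflammatory genes were below the count filter. Of 24 acute-phase and inflammatory genes, 6 were tested, 0 rose and 0 fell with vehicle by edgeR (2 at an unadjusted p under 0.05), and 1 rose and 0 fell with TMAO (3 at an unadjusted p under 0.05). Saa1, Saa2 and Ptx3 had 0 counts in every library, while Hp reached 8 and Lcn2 11 counts at most. The one that rose with TMAO was Crp (0.21 ± 0.05, edgeR adjusted p = 0.0186, up to 0.110 without low glucose TMAO replicate 3 or high glucose TMAO replicate 1 or 2), which had 17.2 ± 0.816 and 19.9 ± 0.727 FPKM. With vehicle Crp differed by 0.16 ± 0.05 (edgeR adjusted p = 0.129). Of 20 fat and liver metabolism genes, 11 were tested, 2 with vehicle and 4 with TMAO had an unadjusted p under 0.05, and 1 rose under either treatment, Ppargc1a, a coactivator of mitochondrial genes (0.59 ± 0.11 with vehicle and 0.62 ± 0.11 with TMAO, edgeR adjusted p = 0.00199 and 0.00128). Fabp4, Lep, Pck1 and G6pc had 0 counts throughout, and the fat cell factor Pparg was at 2.24 and 2.41 FPKM with vehicle and did not pass (edgeR adjusted p = 0.815). Srebf1 and Fasn of the same list were well expressed, at 56.2 and 52.8 FPKM in low glucose with vehicle. Neither passed for glucose by edgeR.

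**Figure D5:**
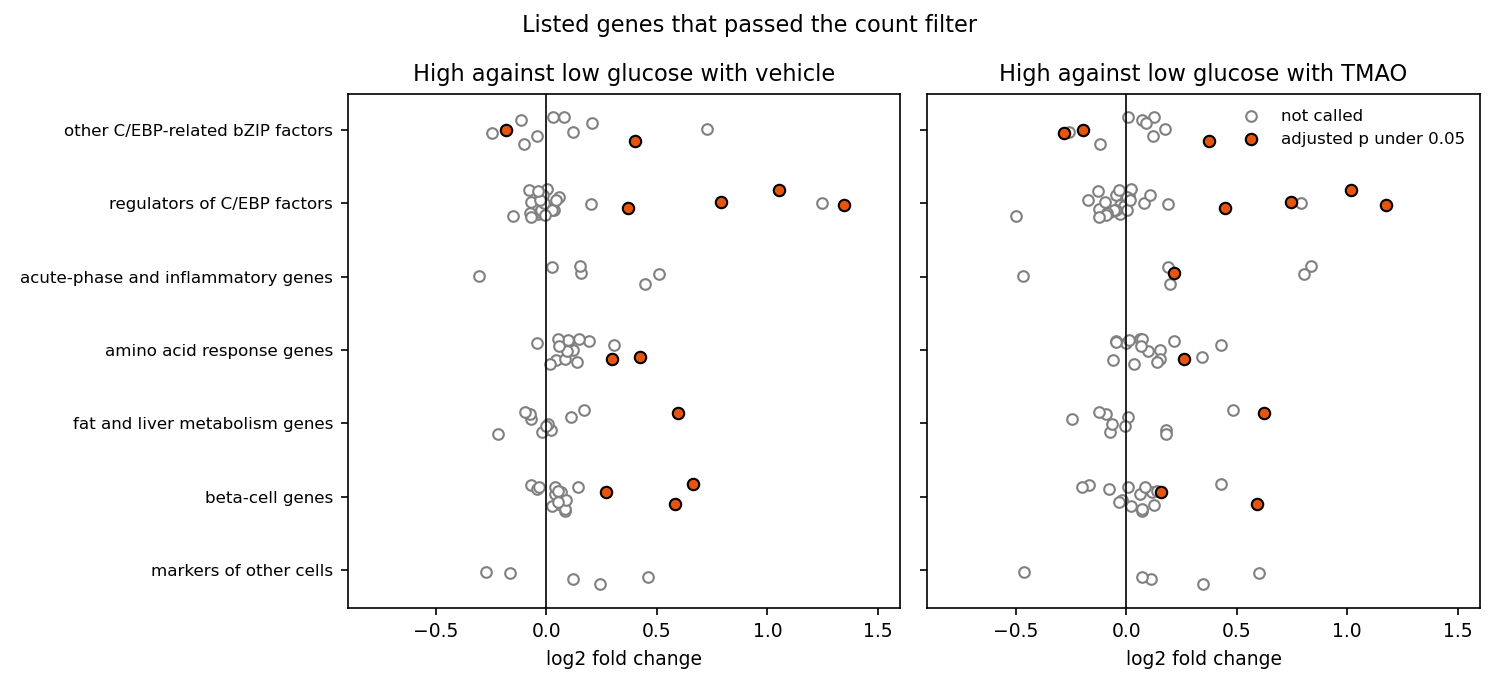
Log2 fold change from low to high glucose (x axis) with vehicle (left) and with TMAO (right) for the genes of 7 lists that passed the count filter, 1 dot per gene, filled where the edgeR adjusted p was under 0.05. Most dots lie near 0, and the 4 filled dots among the regulators of C/EBP factors are Klf4, Crem, Trib1 and Trib2.

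Amino acid response genes, the setting in which C/EBPγ and ATF4 are known as partners, were all expressed. All 17 were tested, and 2 rose and 0 fell in high glucose with vehicle, while 1 rose and 0 fell with TMAO, with a list median of 0.096 and 0.071 (log2). An unadjusted p under 0.05 was found for 5 of them with vehicle and 7 with TMAO. The cystine and neutral amino acid transporter subunit Slc3a2 rose by 0.30 ± 0.05 with vehicle and 0.26 ± 0.05 with TMAO (edgeR adjusted p = 5.7e-05 and 0.000363). Vldlr, a lipoprotein receptor, rose with vehicle (0.43 ± 0.10, edgeR adjusted p = 0.0279), a call lost without low glucose vehicle replicate 1 or 2 or high glucose vehicle replicate 1, 2 or 3 (up to 0.126), and differed by 0.34 ± 0.10 with TMAO (adjusted p = 0.0844). Under TMAO at high glucose the log2 differences from vehicle of all 17 genes were below 0, from −0.17 to −0.0052 with a median of −0.069 against 0.00039 over all tested genes. At low glucose 16 of 17 were below 0, with a median of −0.061 against 0.0011. The 17 genes were measured in the same libraries, so their shared sign is not 17 separate results, and its cause was not tested. None of the 17 passed in either TMAO comparison by edgeR, where 3 and 1 had an unadjusted p under 0.05, next to 5.35% of all tested genes at high and 2.2% at low glucose.

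Of the 17 β-cell genes, 3 rose and 0 fell in high glucose with vehicle, and 2 rose and 0 fell with TMAO. An unadjusted p under 0.05 was found for 4 of them with vehicle and 8 with TMAO. The differentiation factor Neurod1 rose by 0.58 ± 0.04 with vehicle and 0.59 ± 0.04 with TMAO (edgeR adjusted p = 4.6e-11 and 3.0e-11). Nkx2-2 rose by 0.27 ± 0.04 and 0.16 ± 0.04 (edgeR adjusted p = 0.000177 and 0.0393, the latter lost in 10 of 14 alternative fits, among them each that left out 1 of the 6 libraries, up to 0.158). The insulin gene activator Mafa rose by 0.66 ± 0.11 with vehicle (edgeR adjusted p = 0.0126, lost without low glucose vehicle replicate 2 or 3 or high glucose vehicle replicate 3 and in the fit of these 6 libraries alone, up to 0.0582) and differed by 0.43 ± 0.11 with TMAO (adjusted p = 0.0917). No gene of the 7 lists passed for TMAO at either glucose level or for the difference between the TMAO effects by edgeR.

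The genes whose depth-scaled log2 counts followed each member most closely were sought by Pearson's r over the 12 libraries among 12308 other genes with a mean of at least 50 counts. For Cebpd they were Fosl2, Dusp1, Sik1, Nr4a2, Nr4a1, Stk35, Zfp703 and Gem, with r from 0.994 to 0.998 and log2 differences from low to high glucose with vehicle between 1.08 (Stk35) and 3.77 (Sik1). With so large a step between the glucose conditions these r values mostly measure that step, and after subtraction of the condition means r was between 0.374 (Sik1) and 0.920 (Dusp1). None of these 8 was among the first 8 by Spearman's rho. For Cebpb the nearest were Rcc2, Siah2 and Slc3a2 (r of 0.973, 0.968 and 0.967, and 0.770, 0.740 and 0.759 after subtraction). For Cebpg they were Asns, Nars and Ndrg1 (r of 0.931, 0.928 and 0.905, and 0.893, 0.893 and 0.847 after subtraction). Asns, asparagine synthetase, is one of the listed amino acid response genes, and Nars is the asparaginyl-tRNA synthetase. These genes were selected for a high r from all those compared. Between the members themselves r was 0.929 for Cebpb with Cebpd (0.297 after subtraction), 0.657 for Cebpb with Cebpg (0.254) and 0.608 for Cebpd with Cebpg (0.125). All values of a library share its depth, so these r values are descriptions over 12 points.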

How the data were processed

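RNA was sequenced from 12 MIN6 libraries, 3 in each of 4 conditions, which were grouped by their GEO labels. The authors deposited gene counts and FPKM; the submitters' processing notes name HISAT2 2.0.5, featureCounts 1.5.0-p3, DESeq2 1.16.1 and mm10, and the strand setting is not given in the sources used here. The deposited FPKM is the count per gene length and library total, by the authors. Here the deposited counts were tested with edgeR 4.0.16 (R 4.3.3, TMM, filterByExpr, quasi-likelihood test, all 12 libraries with 4 condition means, Benjamini-Hochberg adjustment over 16222 genes, threshold 0.05). Members and gene lists were chosen with earlier results of these data known. Genes named are the members, up to 4 called genes per list and comparison with the largest change, chosen uncalled list members, neighbours, and the 8 or 3 genes most like a member. Further uncalled list genes were named after their values were seen. RefSeq windows matched 3 of the 4 members. GENCODE M21 gave exons. Of 140 listed genes, all were found and 96 tested. Alternatives were DESeq2 1.42.0, its size factors, limma 3.58.1 on log2 FPKM with a pseudocount of 1 or 0.1, no or a stricter filter (at least 10 counts in every library), a replicate block, fewer libraries, and leaving out each library. The model was tested on simulated data. The 16793162 to 22340542 reads per library set the precision of low counts. Floors (3 counts) cover counting error only, while the edgeR intervals include the spread between libraries.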

Additional observations from a re-analysis of the deposited data

How the results depend on the processing

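In every alternative and leave-one-out fit, 0 of the 3 tested members passed for TMAO at high glucose, for TMAO at low glucose, and for the difference between the TMAO effects. With limma on log2(FPKM + 1) the glucose difference of Cebpd was 2.64 with vehicle and 2.64 with TMAO, and on log2(FPKM + 0.1) it was 3.18 with TMAO; a pseudocount shrinks differences of low values by construction. Leaving out a library gave 3.16 to 3.36 with vehicle and 3.25 to 3.27 with TMAO for Cebpd, 0.43 to 0.59 and 0.48 to 0.56 for Cebpb, and 0.082 to 0.17 and 0.031 to 0.17 for Cebpg. It moved the TMAO effect at high glucose from −0.084 to 0.12 for Cebpd and from −0.13 to 0.017 for Cebpg, and at low glucose from −0.079 to 0.11 and from −0.070 to 0.0080. For Cebpb it ranged from −0.17 to −0.017 at high and from −0.18 to −0.033 at low glucose. The difference between the TMAO effects ranged from −0.066 to 0.093 for Cebpb, −0.10 to 0.098 for Cebpd and −0.098 to 0.049 for Cebpg; for Cebpd it was 0.0044 with limma on log2(FPKM + 1). The cause of these turns was not tested.

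Of the listed genes, 1 fell in high glucose with vehicle, 2 without a filter, 2 with the libraries of that comparison alone, 0 with limma on log2(FPKM + 1), and 0 to 1 without 1 library. With TMAO 2 fell, 1 with either limma fit, and 0 to 3 without 1 library. The cause was not tested. The RefSeq length, added after seeing the data, gave Cebpd 2.57, 2.60, 24.7 and 24.9 FPKM (low glucose with vehicle and TMAO, high glucose with vehicle and TMAO), by construction. By Spearman's rho, 0 of the 8 genes nearest to Cebpd and 1 of the 3 nearest to Cebpb were shared.

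Same-numbered libraries showed little shared deviation: over 18 pairs r was −0.038 to 0.213 (mean 0.033). The 2 pairs over 0.1 were both between low glucose with vehicle and low glucose with TMAO (0.213 for replicate 1 and 0.147 for replicate 3). Whether the numbers pair the samples cannot be told from these r values. With the replicate block, 16 listed genes rose (10 without it) and 4 fell with TMAO, 2 fell with vehicle, and the difference between the TMAO effects for Cebpd was 0.0015.

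Over all genes, TMAO at high glucose had 0 calls, 3 with DESeq2, 13 without a filter, 3 with its own libraries and 1 without high glucose vehicle replicate 1. TMAO at low glucose had 1, then 7 without a filter, 3 with its own libraries, 0 with either limma fit and 0 without low glucose TMAO replicate 2. The difference between the TMAO effects had 0, 1 with DESeq2, 6 without a filter and 2 without high glucose TMAO replicate 1. Glucose with TMAO had 591, then 783 with the replicate block, 770 without a filter and 524 with its own libraries. It had 347 and 337 by limma, and 344 to 657 without 1 library. Glucose with vehicle had 536, then 717 with the replicate block, 656 without a filter and 597 with its own libraries. It had 421 and 417 by limma, and 328 to 475 without 1 library. Depth limits what can be said of Cebpa, with 0 to 2 counts per library.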
